A study of Homo sapiens with 3 samples.

Results

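Histone genes were followed through 3 RNA libraries of breast cancer tumorspheres. The set holds the 87 protein-coding genes whose symbols begin with HIST1H, HIST2H, HIST3H, HIST4H, H2AF, H3F3 or H1F, out of 57773 genes in the deposited tables, a rule that reads symbols and gene class alone. By symbol, 71 are replication-dependent genes (HIST symbols) and 16 are variant genes (H2AF, H3F3 and H1F symbols). By family, 10 encode linker histone H1, 26 encode H2A, 18 encode H2B, 18 encode H3 and 15 encode H4.

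Histones H2A, H2B, H3 and H4 form the core particle around which DNA is wound, and H1 binds the linker DNA between particles. Replication-dependent histone genes lie in clusters, lack introns and are transcribed mainly in S phase, and their mRNAs normally end in a conserved stem-loop, bound by SLBP, in place of a poly(A) tail. Variant genes such as H2AFZ and H3F3B are transcribed throughout the cell cycle into polyadenylated mRNAs, and their proteins enter chromatin outside replication as well. A library made from rRNA-depleted total RNA, as here, keeps mRNAs that have no poly(A) tail.

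The cells were MDA-MB-231, an established line of human triple-negative breast cancer, grown as tumorspheres, which are floating cell clusters formed in low-adhesion plates. The control was wild-type spheres without treatment. The second group was wild-type spheres transfected with a LINC00273-pcDNA-CMV clone, a plasmid that carries the long non-coding RNA LINC00273 and is named for the CMV promoter, and its genotype label is LINC00273 overexpression. The third group was wild-type spheres given 10 µM M2, whose structure is not given under this code name, and all 3 groups carry the time label 24 h. No label names an empty plasmid or a solvent control, and each group is 1 library.

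The libraries held 8620534 reads on genes for the control, 5123199 for the transfected group and 4695535 for M2. The second is called the LINC00273-labelled library below, and lists of 3 values keep the order control, LINC00273-labelled, M2. LINC00273 had 0 reads in all 3 libraries, so the second library is named by its label only. The non-coding RNAs RN7SL1 and RN7SK took 54.7%, 42.8% and 39.3% of reads. Of 18 MDA-MB-231 marker genes, 0, 1 and 2 were at 0 reads, and their summed level was 2585, 2145 and 1429 CPM, which are reads scaled by TMM to a common library size. VIM, the mesenchymal intermediate filament, had 11763, 8910 and 4182 reads, whereas 12 luminal breast markers summed to 35.7, 32.6 and 16.6 CPM. Markers of blood cells (17 genes) summed to 838, 11.6 and 1439 CPM. The globin gene HBB, with 4860, 9 and 5417 reads, made up most of this in the control and M2 libraries but not in the LINC00273-labelled one. The 9 fibroblast markers summed to 17.5, 21.3 and 13 CPM. The part of these cell markers in the histone values was not tested. Each group being 1 library, differences have no replicate check and no p-value is given, and intervals are 95% exact (Clopper-Pearson) intervals that cover counting error only.

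The stem-loop that ends a replication-dependent mRNA was found in an annotated transcript of 32 of the 71 HIST genes, and in 5 of 19582 other protein-coding genes (GENCODE 29, GRCh38). All 32 were among the 37 HIST genes with an annotated transcript beyond the coding sequence, whereas the other 34 are annotated as coding sequence alone. The stretches below show the kinds of stem-loop met in the genes with most reads and in rarer forms, as DNA, with the 16 bases of the stem-loop in capitals.
HIST3H2A: acataaaGGCTCTTTTCAGAGCCacctact
HIST1H2BN: ccccaaaGGCTCTTTTCAGAGCCactcagt
HIST1H2BF: tcccaaaGGCTCTTTTAAGAGCCacccact
HIST1H4I: ctaaaaaGGCCCTTTTTAGGGCCcctaagc
HIST1H4J: aataaaaGGCCCTTTTCAGGGCCacccta
H2AFX: ccacaaaGGCCCTTTTAAGGGCCaccaccg
HIST1H3E: atccaaaGGCTCTTCTCAGAGCCaaccact

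The form shared by HIST3H2A and HIST1H2BN stood in 17 genes, from 0 control reads on HIST1H2BG to 41719 on HIST3H2A, so genes with the same stem-loop ran from the lowest to the highest read number. The form of HIST1H2BF stood in 5 genes, that of HIST1H4J in 5 and that of HIST1H4I in 3, all of the last being H4 genes. H2AFX encodes H2A.X, the variant phosphorylated around DNA breaks, and was the 1 variant gene with a stem-loop. At least 100 reads in a library fell on 16 of the 32 HIST genes with an annotated stem-loop and on 14 of the 39 without one.

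Promoters of 80 members, taken from RefSeq on GRCh38.p14 as 250 bases before to 50 after the start, were searched on both strands for TATAAA, the TATA box, for CCAAT, the site read by NF-Y, and for ATTTGCAT, the octamer read by OCT1. The octamer stood in 14 of 18 H2B promoters and 11 of 25 H2A promoters, but in 2 of 15 H3, 0 of 13 H4 and 0 of 9 H1 promoters, against 1.77% of all 35116 promoters. CCAAT was in 18 of 18 H2B, 23 of 25 H2A, 15 of 15 H3, 8 of 9 H1 and 3 of 13 H4 promoters, against 34.6% of all. TATAAA was in 12 of 18 H2B and 44 of 66 HIST promoters, against 11.5% of all. Matches of different motifs did not overlap in these promoters, and a match describes the letters alone. The regions of divergent H2A and H2B partners overlap, so the same match can be counted in both families, as the octamer of HIST1H2AM and HIST1H2BO is. HIST1H3D and HIST1H2AD have the same region, chr6:26199244-26199543, so its octamer is counted under H3 and H2A. The family counts are thus not counts of separate stretches of DNA. The promoter of HIST1H2BO, at chr6:27893175-27893474 on the plus strand, is shown because its DNA is also the upstream region of HIST1H2AM on the other strand. That of HIST3H2A, at chr1:228457824-228458123 on the minus strand, is shown because the member with most reads held neither TATAAA nor ATTTGCAT. Capitals mark the motifs on either strand.
HIST1H2BO: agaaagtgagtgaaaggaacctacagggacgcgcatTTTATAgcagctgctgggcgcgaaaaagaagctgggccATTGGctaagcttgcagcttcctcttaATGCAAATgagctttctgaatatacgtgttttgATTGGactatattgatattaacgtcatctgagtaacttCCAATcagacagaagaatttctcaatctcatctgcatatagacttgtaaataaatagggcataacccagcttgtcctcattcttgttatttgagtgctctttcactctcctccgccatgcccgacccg
HIST3H2A: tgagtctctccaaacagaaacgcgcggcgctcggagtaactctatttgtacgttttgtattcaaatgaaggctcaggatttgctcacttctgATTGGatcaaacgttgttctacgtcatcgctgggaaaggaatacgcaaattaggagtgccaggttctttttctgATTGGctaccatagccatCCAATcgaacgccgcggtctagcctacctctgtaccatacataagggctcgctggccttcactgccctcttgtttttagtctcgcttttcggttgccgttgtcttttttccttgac

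Histone reads were unevenly spread over the 87 genes. In the control, 8 members had at least 10000 reads, 23 had at least 1000 and 39 had at least 100, whereas 13 had none. Over all 3 libraries, 39 members reached 100 reads in 1 or more libraries, 14 others had at least 20 reads in total, 25 had 1 to 19 and 9 had none. The 7 members with most reads, HIST3H2A, HIST1H2BN, H2AFZ, HIST1H2BO, HIST1H2BE, HIST1H2BL and HIST2H2BF, held 75.9%, 74.5% and 77.5% of the histone reads. Of 20327 protein-coding genes ranked by reads, HIST3H2A was number 5 in the control, 8 in the LINC00273-labelled library and 10 in the M2 library.

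Nearly all H1 reads came from 1 replication-dependent gene and 1 variant. HIST1H1E, which encodes the somatic linker histone H1.4, had 1499 reads in the control, 951 in the LINC00273-labelled library and 524 in the M2 library. H1F0, the replication-independent linker variant of differentiated and resting cells, had 2509, 1354 and 1378 reads. HIST1H1E carried 98.6% of the control reads of the 6 HIST H1 genes. HIST1H1C, which encodes the somatic subtype H1.2, had 7, 4 and 6 reads. No stretch of 150 bases of its transcript recurs in another annotated gene, and the cause of its low count was not tested. HIST1H1T, the testis H1 gene, had none.

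H2A reads came mainly from 1 replication-dependent gene and 1 variant. HIST3H2A had 41719 reads in the control, 18781 in the LINC00273-labelled library and 18795 in the M2 library, and made up 88.3% of the control reads of the 17 HIST H2A genes. H2AFZ, which encodes H2A.Z, the variant placed at promoters and enhancers, had 36562, 19856 and 20107 reads. Per kilobase of annotated exons and on the TMM scale, the control levels were 6466 RPKM for HIST3H2A and 2202 RPKM for H2AFZ. The H2AFZ value uses 2303 bases of annotated exon, whereas its longest coding transcript has 979 bases. For HIST3H2A both lengths are 895 bases. The distance between these 2 levels thus depends on which H2AFZ isoforms are made. HIST1H2AL had 1853, 1025 and 733 reads. HIST1H2AI had 1713, 932 and 776 reads, and HIST1H2AJ, with which it shares stretches of sequence, had 395, 216 and 114. These last genes can have exchanged reads, since no source used here says how reads with several matches were counted. HIST1H2AK had 1415, 847 and 498 reads, but its transcript lies wholly within annotated sequence of HIST1H2BN on the opposite strand. The longest coding transcript of HIST1H2BN, of 4137 bases, does not hold that sequence. Reads on the stretch that overlaps cannot be told apart without strand. Among the other H2A variants, H2AFX had 3063, 1515 and 1409 reads. H2AFV, which encodes the second H2A.Z protein, had 643, 373 and 220 reads. H2AFY, which encodes macroH2A1, a variant enriched on the inactive X chromosome, had 623, 297 and 281. H2AFJ, a variant linked to senescence, had 360, 182 and 102. H2AFY2, the gene of macroH2A2, had 2, 2 and 0 reads, and the testis variants H2AFB1, H2AFB2 and H2AFB3, which share sequence with each other, had none.

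**Figure D1:**
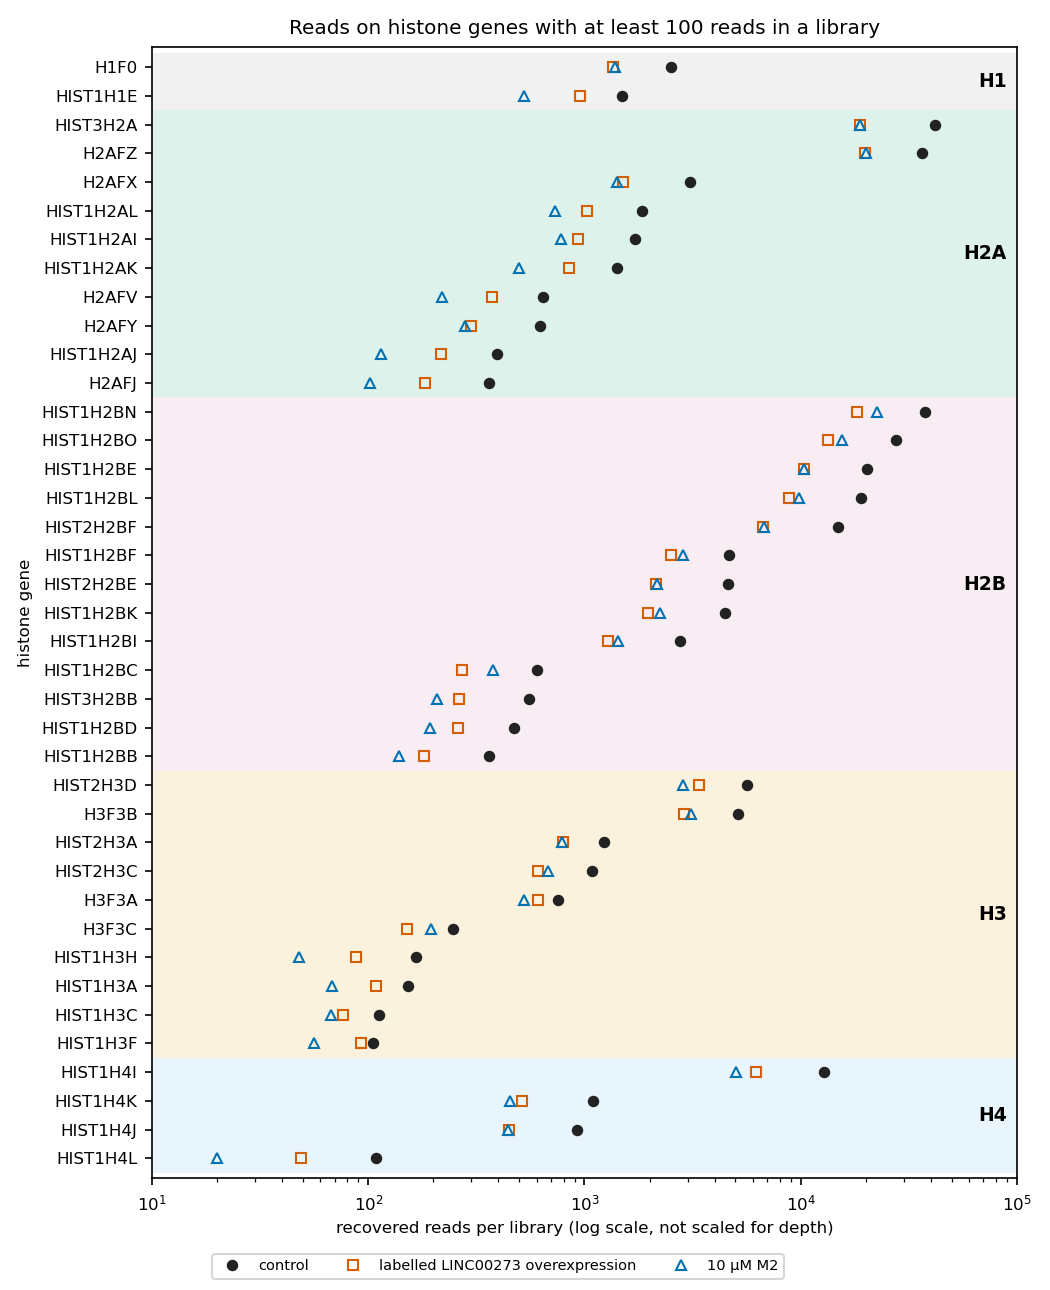
Reads of the 39 histone genes with at least 100 reads in a library, by family, on a log axis that is not scaled for depth. Filled circles are the control, open squares the LINC00273-labelled library and open triangles the M2 library, and the deepest library, the control, lies to the right for all 39 genes.

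H2B was the family with most reads, spread over 13 genes with at least 100 reads. HIST1H2BN led with 37474 reads in the control, 18240 in the LINC00273-labelled library and 22555 in the M2 library. HIST1H2BO had 27784, 13333 and 15532 reads, and its 10116 RPKM in the control was the highest level per length among the members. HIST1H2BN was at 949 RPKM, since 5477 bases of exon are annotated for it against 381 for HIST1H2BO, so that its level per length depends on which isoforms are made. HIST1H2BE had 20302, 10322 and 10342 reads. HIST1H2BL had 19113, 8852 and 9850 reads, or 5433 RPKM in the control. HIST2H2BF had 14965, 6723 and 6809 reads. The next 4 genes lay between 2779 and 4687 control reads. HIST1H2BF had 4687, 2512 and 2854. HIST2H2BE had 4621, 2138 and 2170. HIST1H2BK had 4467, 1959 and 2248. In each of these 3 genes the M2 library held more reads than the LINC00273-labelled one. HIST1H2BI had 2779, 1288 and 1437 reads. The other 4 H2B genes past 100 reads were low. HIST1H2BC had 603, 270 and 377. HIST3H2BB had 552, 264 and 207. HIST1H2BD had 471, 259 and 192. Lowest of these was HIST1H2BB, with 361, 180 and 139 reads. HIST1H2BA, the testis H2B gene, had none.

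H3 reads came from HIST2 genes and from the H3.3 genes. HIST2H3D had 5669 reads in the control, 3389 in the LINC00273-labelled library and 2857 in the M2 library, and 1913 RPKM in the control. HIST2H3A had 1231, 799 and 791 reads, and HIST2H3C had 1083, 611 and 676. The annotated transcripts of HIST2H3A and HIST2H3C are identical, so their values show how reads were divided and not the level of each gene. H3F3B and H3F3A both encode H3.3, the H3 variant deposited outside replication by the HIRA and DAXX-ATRX chaperones. H3F3B had 5156, 2889 and 3107 reads. H3F3A had 757, 607 and 525 reads, and shares sequence with the pseudogene H3F3AP4, which had 571, 475 and 461. H3F3C, a gene that arose from an H3F3B copy and encodes H3.5, had 247, 151 and 195 reads. The HIST1 cluster gave few H3 reads. HIST1H3H had 166, 88 and 48. HIST1H3A had 152, 109 and 68. HIST1H3C had 112, 76 and 67. Nearly the same level was seen for HIST1H3F, with 105, 92 and 56.

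H4 is a protein encoded by many genes with the same product, and here 1 gene held most of its reads. HIST1H4I had 12900 reads in the control, 6206 in the LINC00273-labelled library and 5003 in the M2 library, which was 85.5% of the control reads of the 15 H4 genes. HIST1H4K had 1095, 512 and 454, and HIST1H4J, with which it shares sequence, had 924, 449 and 442. HIST1H4L had 109, 49 and 20. HIST1H4C had 2, 0 and 4 reads. No stretch of 150 bases of its transcript is shared, and the cause of its low count was not tested. HIST2H4A had 18, 8 and 2 reads and HIST2H4B 2, 8 and 2, and these last genes do share their sequence.

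Among the 14 members with at least 20 reads in all but under 100 in each library, control reads ran from 6 on HIST1H3E to 99 on HIST1H3D. HIST1H2AE had 63, 42 and 23 reads, and HIST3H3, the testis H3 gene, had 58, 47 and 30. HIST1H2AG had 34 control reads, HIST1H2BH 23, HIST1H4A 21, HIST2H2AB 18, HIST1H2BM 15, HIST1H2AB 14, HIST2H2AC 14, HIST1H2AC 10 and HIST1H2BJ 10. The members at 0 in all 3 libraries were HIST1H1T, HIST1H2AD, HIST1H2BA, HIST2H2AA3, HIST2H2AA4, HIST2H3PS2, H2AFB1, H2AFB2 and H2AFB3. A count of 0 allows up to 3 fragments, or 6 reads, which is 0.696, 1.17 and 1.28 CPM when scaled to total reads. HIST2H2AA3 and HIST2H2AA4 share sequence with each other, as do H2AFB1, H2AFB2 and H2AFB3. HIST2H3PS2 shares sequence with HIST2H3D, and HIST1H2AD lies within a longer annotated gene. For all of these a 0 can also be a matter of how reads were assigned, which was not tested.

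In the GENCODE 29 annotation of GRCh38, the 55 HIST1 genes lie on chromosome 6 between 25726132 and 27893843, the 12 HIST2 and 3 HIST3 genes on chromosome 1, and HIST4H4 on chromosome 12. Pairs were taken by the outermost annotated start of each gene. Within these clusters, 11 pairs of an H2A and an H2B gene then point away from each other with 219 to 331 bases between their starts. In 6 of the 11 pairs, 1 gene had under 20 control reads and its partner at least 100. HIST1H2AM had 6, 3 and 4 reads beside 27784, 13333 and 15532 on HIST1H2BO, and by the RefSeq starts the region between the genes is part of the HIST1H2BO sequence printed above. In the annotation, 80.7% of the 150-base stretches of HIST1H2AM also lie in HIST1H3J, which had 7, 0 and 2 reads. The low count of HIST1H2AM can thus also be a matter of how reads were assigned, which was not tested. HIST1H2AD had 0 in each library beside 4687, 2512 and 2854 on HIST1H2BF. HIST2H2AC had 14, 6 and 6 beside 4621, 2138 and 2170 on HIST2H2BE. The H2B gene had more control reads in 6 of the 11 pairs. The H2A gene had more in the HIST3 pair, where HIST3H2A had 41719 reads and HIST3H2BB 552, and in the pair of HIST1H2AJ with 395 reads and HIST1H2BM with 15. In these 5 pairs the same gene had more reads in all 3 libraries, whereas HIST1H2AG had 34, 5 and 2 reads beside 10, 9 and 12 on its partner HIST1H2BJ. HIST1H2AK and HIST1H2BN are not among the 11, but by the RefSeq starts they diverge too. Their promoter regions are chr6:27838326-27838625 on the minus strand and chr6:27838319-27838618 on the plus strand. HIST1H2AK had 1415 control reads and HIST1H2BN 37474.

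**Figure D2:**
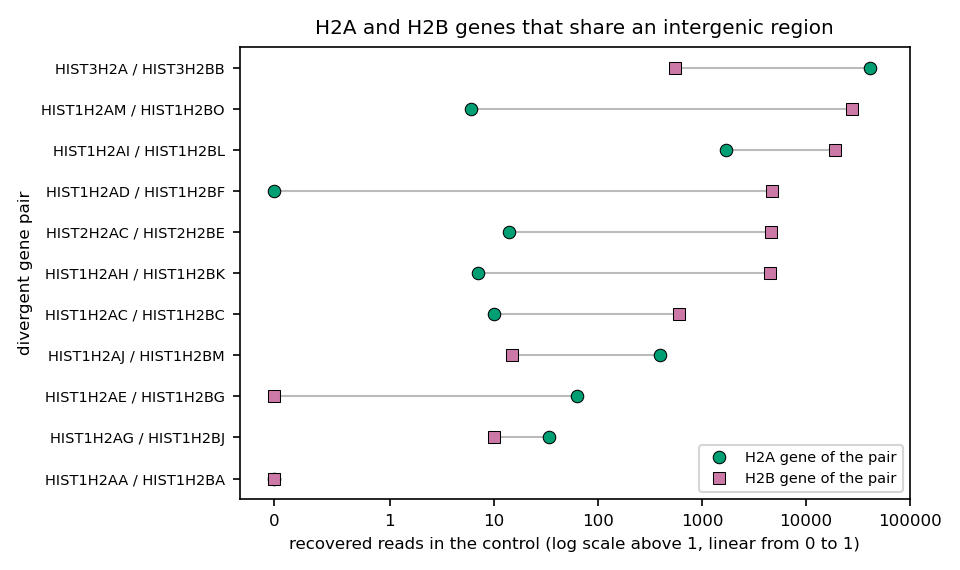
Control reads of the 11 divergent H2A and H2B pairs found by the outermost GENCODE starts. Circles are the H2A gene and squares the H2B gene, on an axis that is logarithmic above 1 and linear from 0 to 1. In 6 pairs the marks lie on both sides of the range from 20 to 100 reads, as for HIST1H2AM (6) and HIST1H2BO (27784).

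The first comparison set the LINC00273-labelled library against the control. On the TMM scale, histone genes were lower in that library: 36 of 51 members with at least 20 reads over the pair were at least 1.5-fold lower and 1 was higher, whereas of all 8828 genes with that many reads 25.2% were lower and 21.7% higher. The median log2 ratio was −0.74 over the members and −0.08 over all genes. With at least 100 reads over the pair, 29 of 42 members were lower and 0 higher, against 26.7% and 16.6% of 4691 genes. In bulk RNA, fewer cells that express a gene and less RNA per cell cannot be told apart. Relative to the median of all genes, which does not depend on the scaling, 28 of the 51 members were at least 1.5-fold lower and 1 higher, against 21.5% and 24.7% of all genes. Scaled to total reads, in which RN7SL1 and RN7SK weigh most, the median of all genes moved to 0.44 and that of the members to −0.23, and 3 of 51 members (5.88%) were lower and 1 higher by 1.5-fold, beside 7.23% lower and 43.0% higher of all genes. Replication-dependent genes had a median log2 ratio of −0.79, with 30 of 42 lower, and variant genes one of −0.65, with 6 of 9 lower. The summed histone reads gave a log2 ratio of −0.78 (−0.80 to −0.77).

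H2B and H4 genes were lower, each measured one, in the LINC00273-labelled library on the TMM scale. All 15 measured H2B genes were at least 1.5-fold lower, beside 25.2% of all genes. Their median log2 ratio was −0.87, with a range of −0.97 to −0.63. HIST1H2BK was at −0.96 (−1.07 to −0.85), HIST2H2BF at −0.92 (−0.98 to −0.86) and HIST1H2BD, the nearest to the control, at −0.63 (−0.95 to −0.32). The 6 measured H4 genes were all lower, with HIST1H4I at −0.82 (−0.89 to −0.76). Scaled to total reads, no H2B gene and 1 H4 gene passed 1.5-fold, beside 7.23% of all genes lower, and the family medians were −0.35 and −0.37. Set against genes of similar GC content, only 3 of the 15 H2B genes and 1 of the 6 H4 genes stayed at least 1.5-fold lower. Of 15 H2A genes 11 were lower, led among well-covered genes by HIST3H2A at −0.92 (−0.96 to −0.88) and H2AFX at −0.78 (−0.91 to −0.66), while H2AFZ was at −0.65 (−0.68 to −0.61).

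The H3 median was nearer to that of all genes. Of 13 measured H3 genes 3 were lower and 1 higher, beside 25.2% and 21.7% of all genes. Their median log2 ratio was −0.33 on the TMM scale and 0.19 when scaled to total reads. HIST2H3D was at −0.51 (−0.60 to −0.42), which is short of 1.5-fold. H3F3B was at −0.60 (−0.70 to −0.51), whereas H3F3A, the other H3.3 gene, was at −0.09 (−0.31 to 0.13). The pseudogenes that share sequence with H3F3A were near it, with H3F3AP4 at −0.03 (−0.29 to 0.22) and H3F3AP6 at 0.03 (−0.54 to 0.59). The 1 higher member was HIST1H3E, from 6 to 18 reads, whose log2 ratio of 1.82 had an interval of −0.19 to 4.34. Of the H1 genes, H1F0 was at −0.66 (−0.80 to −0.52) and HIST1H1E at −0.42 (−0.59 to −0.26).

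**Figure D3:**
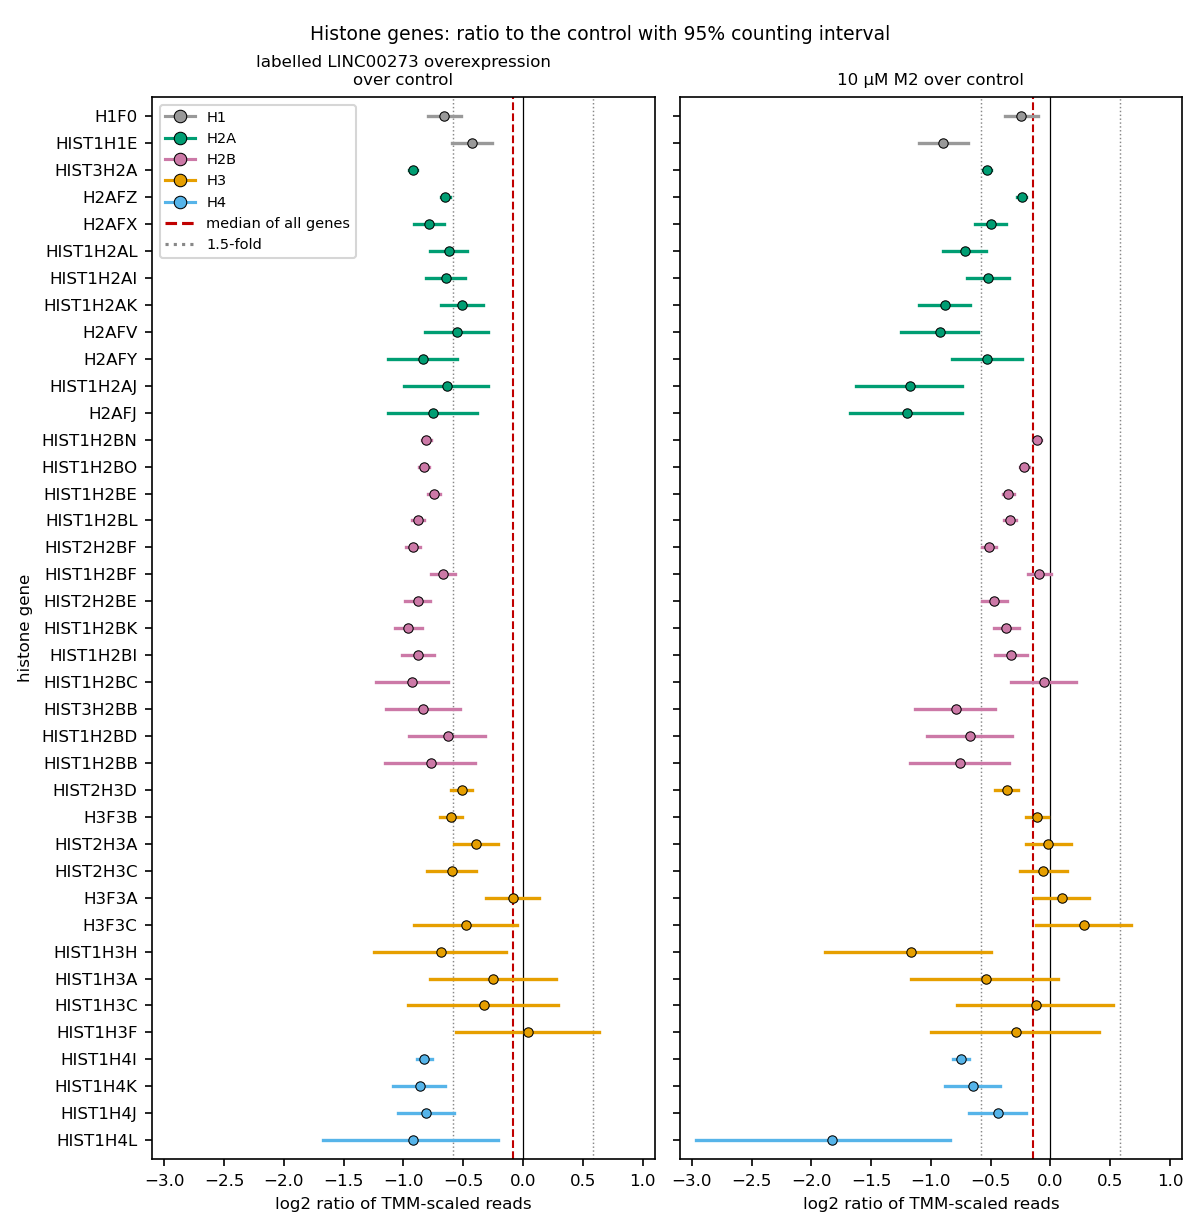
Log2 ratio of TMM-scaled reads to the control for the 39 genes, with 95% counting intervals, for the LINC00273-labelled library (left) and the M2 library (right). The dashed line is the median of all genes (−0.08 and −0.15) and dotted lines mark 1.5-fold, and the H2B genes sit together near −0.8 on the left but spread from −0.79 to −0.06 on the right.

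The second comparison set the library of spheres given 10 µM M2 against the same control. Histone genes were again more often lower than higher: of 49 members with at least 20 reads over the pair, 21 were at least 1.5-fold lower and 1 was higher, against 31.4% lower and 24.8% higher of 7988 genes. The median log2 ratio was −0.52 over the members and −0.15 over all genes. With at least 100 reads over the pair, 14 of 40 members were lower and 0 higher, against 23.1% and 29.4% of 4522 genes. Relative to the median of all genes 17 of the 49 were lower and 1 higher, against 1999 lower and 2313 higher of the 7988 genes, and scaled to total reads 13 (26.5%) were lower and 1 higher, beside 21.2% and 32.5% of all genes. The 1 higher member was HIST1H2BJ, with 10 and 12 reads, whose log2 ratio of 0.88 had an interval of −1.09 to 2.93. Replication-dependent genes had a median of −0.53, with 19 of 40 lower, and variant genes one of −0.24, with 2 of 9 lower, which turned to 0.01 when scaled to total reads. Summed histone reads gave −0.34 (−0.35 to −0.32).

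By family median, H4 was lowest in the M2 library, with 5 of 6 measured genes at least 1.5-fold lower and a median log2 ratio of −1.29. That median rests on genes with few reads, such as HIST1H4A with 21 and 2 and HIST2H4A with 18 and 2, and with at least 100 reads over the pair 3 of 4 H4 genes were lower with a median of −0.70, beside −0.62 for 10 H2A genes. HIST1H4I was at −0.75 (−0.81 to −0.68) and HIST1H4L, from 109 to 20 reads, at −1.82 (−2.96 to −0.84). Of all genes 31.4% were lower, and of 14 H2A genes 9 were, with a median of −0.77. Among them HIST1H2AJ was at −1.17 (−1.62 to −0.74), H2AFJ at −1.20 (−1.68 to −0.74) and H2AFV at −0.93 (−1.25 to −0.61). The H2A genes with most reads were less far from the control, with HIST3H2A at −0.53 (−0.56 to −0.49) and H2AFZ at −0.24 (−0.28 to −0.21).

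H2B genes varied among themselves in the M2 library. Of 15 measured, 4 were lower and 1 higher, with a median log2 ratio of −0.35. Both are smaller shares than the 31.4% lower and 24.8% higher of all genes. HIST1H2BN at −0.11 (−0.14 to −0.08), HIST1H2BO at −0.22 (−0.26 to −0.18) and HIST1H2BF at −0.09 (−0.19 to 0.00) were close to the control, and HIST1H2BE at −0.35 (−0.40 to −0.30) and HIST2H2BF at −0.51 (−0.57 to −0.46) were further from it. The 3 lowest of the H2B genes with at least 100 reads were below these, HIST3H2BB at −0.79 (−1.13 to −0.46), HIST1H2BB at −0.76 (−1.18 to −0.35) and HIST1H2BD at −0.67 (−1.03 to −0.32). HIST1H2BC, with 603 and 377 reads, was near the control at −0.06 (−0.33 to 0.21), so the order of levels does not give the order of ratios. HIST1H2AK, whose transcript lies within annotated sequence of HIST1H2BN outside its longest coding transcript, was at −0.89 (−1.10 to −0.67) beside −0.11 for HIST1H2BN.

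In the H3 family, HIST2H3A at −0.02 (−0.20 to 0.17), H3F3A at 0.09 (−0.14 to 0.32) and H3F3B at −0.11 (−0.20 to −0.02) were near the control, and 2 of 12 measured genes were lower, HIST1H3H at −1.17 (−1.89 to −0.50) and HIST1H3D at −0.96 (−1.86 to −0.14). Of all 7988 genes 31.4% were lower, a larger share than in the H3 family. The H3 median was −0.20 on the TMM scale and 0.05 when scaled to total reads. The linker gene HIST1H1E was lower at −0.90 (−1.10 to −0.69), while H1F0 was at −0.24 (−0.38 to −0.11).

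Both comparisons share the control library, so the M2 library was also set against the LINC00273-labelled library without it. Of 44 members with at least 20 reads over that pair, 6 were at least 1.5-fold higher with M2 and 3 lower, against 17.9% and 21.6% of 7824 genes. The median log2 ratio was 0.21 over the members and 0.11 over all genes. With at least 100 reads over the pair, 5 of 39 members were higher and 1 lower, against 20.2% and 6.17% of 4214 genes. The H2B family accounted for 5 of the 6 members higher at 20 reads, with a family median of 0.55 over 14 genes, and HIST1H2BC was highest at 0.87 (0.54 to 1.20), before HIST1H2BN at 0.70 (0.66 to 0.74) and HIST1H2BO at 0.61 (0.56 to 0.66). No H2A gene of 11 passed 1.5-fold in either direction, and their median was −0.09. Scaled to total reads, 1 of 44 members was higher and 11 lower, beside 7.85% and 29.8% of all genes, and the H2B median was 0.28.

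The make-up of the histone reads needs no scaling between libraries. H2B genes held 53.0% of histone reads in the control (interval 52.7% to 53.3%), 51.4% in the LINC00273-labelled library (51.1% to 51.8%) and 55.7% in the M2 library (55.3% to 56.1%). H2A genes held 33.9%, 34.2% and 32.1%. The share of H4 was 5.79% (5.66% to 5.92%), 5.63% (5.45% to 5.81%) and 4.43% (4.28% to 4.59%), so it was lowest in the M2 library. H3 held 5.70% (5.58% to 5.83%), 6.94% (6.75% to 7.14%) and 6.31% (6.13% to 6.5%) and was highest in the LINC00273-labelled library. H1 held 1.55%, 1.80% and 1.43%. Variant genes together held 19.1%, 21.1% and 20.4%. Among single genes, HIST1H2BN took 14.4%, 14.1% and 16.8% of histone reads, HIST3H2A took 16%, 14.6% and 14%, and HIST1H4I took 4.95%, 4.81% and 3.73%. Counting intervals did not overlap with the control for the H2B, H3 and variant shares in both other libraries, for H1 in the LINC00273-labelled library, and for H2A and H4 in the M2 library, and overlapped for the other family shares. Without replicates their size against the spread within a group is unknown.

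**Figure D4:**
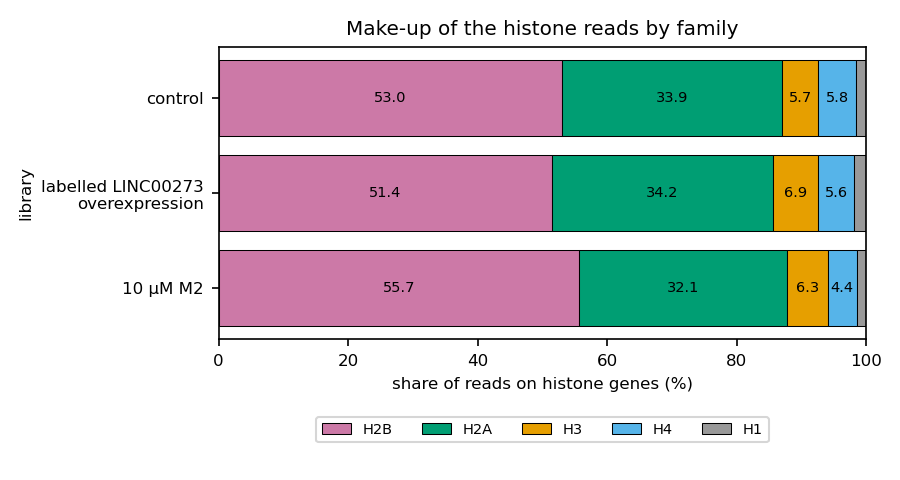
Share of histone reads by family in each library, with 1 bar per library and the families H2B, H2A, H3, H4 and H1 from left to right. H2B takes 53.0%, 51.4% and 55.7%, and the H4 segment is narrowest in the M2 library at 4.43%.

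All histone genes together held 3.02% (3.01% to 3.04%), 2.52% (2.50% to 2.54%) and 2.86% (2.84% to 2.88%) of all reads. With protein-coding reads as the base the shares were 7.27%, 4.73% and 5.03%, so that the distance between the control and the other libraries depends on the base.

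Base composition moved with the ratios. Members with at least 100 reads over the control and the LINC00273-labelled library had a median GC content of 57.4%, against 46.0% for all such genes, and 35 of 42 members lay above the latter. Across all genes the ratio to the control was lower at higher GC content, with a rank correlation of −0.56 for the LINC00273-labelled library and −0.67 for the M2 library, over 4688 and 4519 genes measured in the same libraries. In the 20% of genes richest in GC the median log2 ratio was −0.58 and −0.64, and in the 20% poorest in GC 0.41 and 0.85. With each ratio centred on genes of similar GC content, 8 of 51 members (15.7%) were lower and 2 higher in the first comparison (median −0.27), beside 14.96% lower and 24.9% higher of all genes. In the second, 14 of 49 (28.6%) were lower and 3 higher (median −0.16), beside 26.5% and 16.3%. The share of members called lower was thus near that of all genes in both comparisons once GC content was centred. The family medians then were −0.38 for H2B, −0.45 for H4, −0.26 for H2A and 0.19 for H3 in the first comparison, and −0.31, −1.02, −0.21 and 0.28 in the second. The 15 members under 50% GC stood apart from the others: all 15 were below genes of like GC content in the LINC00273-labelled library (median −0.53) and 12 of 15 in the M2 library (−0.67), whereas of the members at or over 50% 17 of 27 (−0.07) and 7 of 25 (0.20) were. Transcript length moved with the ratios too, with rank correlations of 0.41 and 0.36 over the same genes. Members were shorter, with median lengths of 771.5 and 842 bases against 4120 and 4109 for all genes. The 2 groups of members by GC content were not centred on length, and centring on both is given in the closing section. The parts of GC content and length in the ratios were not tested beyond these centrings. GC content was taken from the longest annotated transcript, which for genes such as HIST1H2BN (39.5%) includes a long extension beyond the histone coding sequence.

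**Figure D5:**
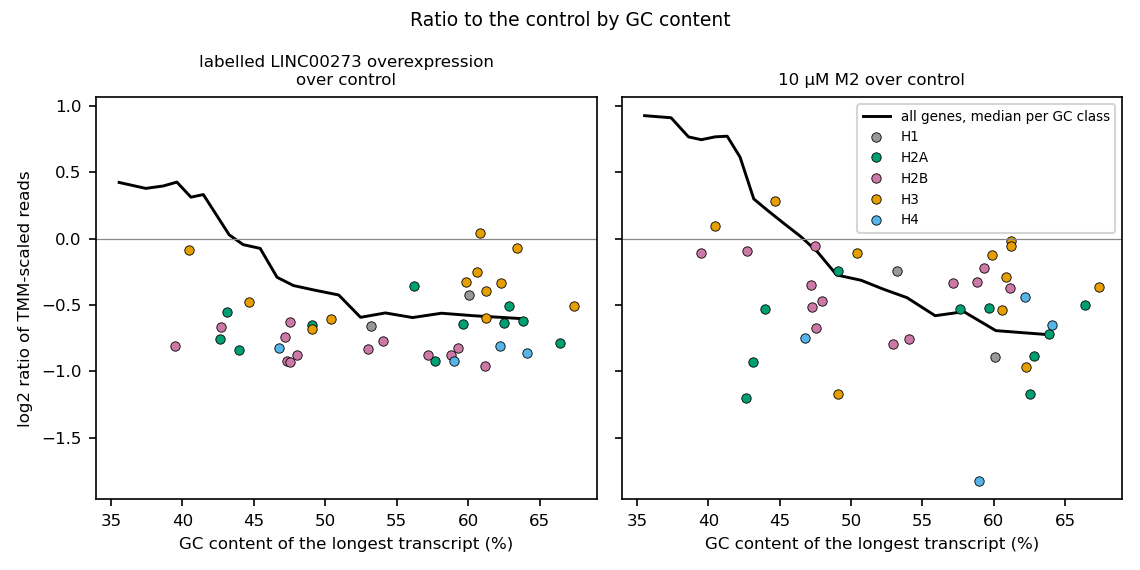
Log2 ratio to the control against GC content of the longest transcript, for histone genes with at least 100 reads over the pair (points, by family) and for all genes (line, median of 20 classes of GC content). The 15 members under 50% GC lie below genes of like GC content on the left and 12 of them do on the right, as HIST1H2BN at 39.5% does at −0.81 (left).

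The authors' deposited tables list genes they called in each comparison, out of 57773 genes. They hold 479 up and 330 down for LINC00273 overexpression and 294 up and 376 down for M2. The smallest log2 ratios in either direction on these lists were 1.87 and 2.09, both larger than the 1.5-fold change used for calls above. None of the 39 members with at least 100 reads was listed. Their lowest log2 ratios on the TMM scale were −0.96 in the first comparison and −1.82 in the second. The authors' deposited table for LINC00273 overexpression lists 5 of the 87 members, HIST1H3G and HIST2H4B as up and HIST1H2AG, HIST1H2AH and HIST1H3I as down. The authors' deposited table for M2 lists 5 of the 87 members, all down, namely HIST1H2AG, HIST1H2BM, HIST1H3B, HIST1H4A and HIST2H4A. HIST1H2AG had the most reads of these genes, with 34, 5 and 2, a log2 ratio of −2.53 (−5.25 to −0.62) in the first comparison and −3.47 (−8.85 to −0.79) in the second. HIST1H3I had 15, 2 and 0 reads. HIST1H3G had 2, 10 and 2. HIST1H2AH had 7, 1 and 2. HIST1H3B had 9, 0 and 1. All of these members have so few reads that the ratios have wide counting intervals.

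Of 31 histone-named rows outside the protein-coding class, mostly pseudogenes, 16 had reads and 4 reached 100 reads in a library. HIST3H2BA had 452, 177 and 180 reads and log2 ratios of −1.12 (−1.49 to −0.76) and −0.71 (−1.08 to −0.35). HIST1H2BPS3 had 286, 116 and 102 reads, with −1.07 (−1.54 to −0.62) and −0.87 (−1.36 to −0.40). Both H2B pseudogenes were thus below the control in both libraries. The other 2 are the H3F3A pseudogenes given above.

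Factors that process histone mRNA had medians of −0.14 and 0.04, beside −0.08 and −0.15 over all genes. Of 32 such genes 27 were measured in each comparison, 3 higher and 7 lower in the LINC00273-labelled library (median log2 ratio −0.14) and 7 higher and 6 lower in the M2 library (0.04). The shares over all genes were 21.7% higher and 25.2% lower in the first comparison, and 24.8% and 31.4% in the second. SLBP, which binds the stem-loop, had 7, 4 and 4 reads and was below the minimum. NPAT, the activator of histone gene transcription in S phase, had 22, 17 and 4 reads. LSM11, part of the U7 particle that cuts the mRNA behind the stem-loop, had 36, 6 and 10 reads, with −2.35 (−4.76 to −0.58) and −1.23 (−3.01 to 0.26). CPSF2, also in that cutting complex, had 192, 291 and 324 reads, with 0.83 (0.45 to 1.22) and 1.38 (1.0 to 1.76). CDK9, the elongation kinase, had 72, 40 and 20.

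Among histone chaperones and deposition factors more genes were called higher than lower in both comparisons, and their median GC content was 45.8%. Of 28 measured genes 8 were higher and 1 lower in the LINC00273-labelled library (median log2 ratio 0.19), beside 21.7% and 25.2% of all genes, and 14 were higher and 5 lower in the M2 library (0.58), beside 24.8% and 31.4%. Set against genes of similar GC content, 10 were higher and 1 lower in the first, beside 24.9% and 14.96% of all genes, and 10 and 2 in the second, beside 16.3% and 26.5%. ATRX, which with DAXX deposits H3.3, had 957, 1239 and 1884 reads, with 0.60 (0.43 to 0.78) and 1.6 (1.44 to 1.76). Its partner DAXX had 112, 68 and 36 reads, with −0.49 (−1.15 to 0.15) and −1.02 (−1.87 to −0.23). SUPT16H, a subunit of the FACT complex, had 571, 942 and 1077 reads, with 0.95 (0.74 to 1.17) and 1.54 (1.33 to 1.75), while SSRP1, the other FACT subunit, had 3372, 2006 and 2093 reads, with −0.52 (−0.63 to −0.40) and −0.07 (−0.18 to 0.05). Partners within both complexes thus had ratios of unlike sign, with intervals that included 0 for DAXX in the first comparison and SSRP1 in the second. NCL, the nucleolar protein nucleolin, had 768, 1196 and 1773 reads, with 0.87 (0.68 to 1.06) and 1.83 (1.65 to 2.0). VPS72, a subunit of complexes that insert H2A.Z, was lower with 62, 22 and 4 reads. ASF1A, an H3-H4 chaperone, had 748, 722 and 805 reads and ASF1B, its paralog, 112, 105 and 56. CHAF1A, the large subunit of the replication-coupled factor CAF-1, had 32, 28 and 8.

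Genes of S phase and of the G1/S transition had medians near 0 on the TMM scale. Of 30 measured in the LINC00273-labelled library 3 were higher and 4 lower (median log2 ratio −0.03), and of 28 in the M2 library 7 were higher and 11 lower (−0.05). Of all genes, 21.7% were higher and 25.2% lower in the first comparison, and 24.8% and 31.4% in the second. Set against genes of similar GC content, 7 were higher and 1 lower in the first (median 0.29) and 6 and 4 in the second (0.06), so the split of higher and lower depends on this centring. The GC-centred shares of all genes are those given beside the chaperones above. CCND1, cyclin D1, had 44, 34 and 2 reads and CCNE2, cyclin E2, had 3, 31 and 12. CDK2, the S phase kinase, had 122, 55 and 44 reads, with −0.92 (−1.62 to −0.25) and −0.85 (−1.62 to −0.13). RRM2, a ribonucleotide reductase subunit, had 38, 26 and 8 reads and RFC3, a clamp loader subunit, 18, 10 and 2. E2F1, a transcription factor of this transition, had 30, 17 and 14.

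Of other histone-fold genes, 6 were measured in each comparison, with medians of −0.07 and 0.20. H2BFS, an H2B gene outside the symbols used, had 235, 87 and 104 reads, with −1.20 (−1.74 to −0.69) and −0.55 (−1.05 to −0.07). DRAP1, a subunit of the NC2 repressor, had 3550, 1226 and 895 reads, with −1.30 (−1.44 to −1.17) and −1.37 (−1.52 to −1.22), while its partner DR1 had 118, 149 and 186 reads, with 0.57 (0.06 to 1.09) and 1.28 (0.79 to 1.77). NFYB and NFYC, the histone-fold subunits of the CCAAT factor NF-Y, had 140, 181 and 169 reads and 890, 478 and 410 reads. TAF9, a TFIID and SAGA subunit, had 1161, 1429 and 1543.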

How the data were processed

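Total RNA of 3 libraries was extracted with TRIzol, depleted of ribosomal RNA with the RiboCop kit and read as 150-bp paired ends, per the labels' protocols and design text. Trimmomatic, Bowtie2 2.2.4, STAR, featureCounts 1.5.2, DESeq2 and the hg19 build are named in the submitters' processing notes, while the annotation, strand and handling of multi-mapping reads are not given in the sources here. The deposited tables hold a signal per gene, which the authors made by dividing a library's read counts by its size factor, as the values show: dividing by the smallest step gave whole reads for 100% of values within a tolerance of 0.01. The ratio and log2 ratio columns of the authors' deposited lists compare these scaled values. The planned design had assumed counts, and recovered reads took their place. Most genes with under 20 reads had an even number (82.3%, 80.5% and 85.8%), so intervals and floors were computed on fragments of 2 reads. No molecular identifiers are named, so PCR copies can be counted more than once, and the intervals take in counting error alone.

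TMM, from edgeR 4.0.16 in R 4.3.3, set effective library sizes of 7208511, 6139145 and 4686051. No gene was tested with edgeR or DESeq2, since 1 library per group leaves no residual degrees of freedom. A log2 ratio has a 95% Clopper-Pearson interval of the split of fragments, and a gene was called with at least 1.5-fold and 20 reads over the pair. The members and the lists of related genes were chosen with earlier results of these data known. All members with 100 reads in a library were named with their reads and, from each list, the first 3 measured genes and up to 4 with the largest ratios; the genes called by the authors, those at 0, HIST1H1C, HIST1H4C, H2AFY2, SLBP, DAXX, SSRP1 and the pseudogenes were named after their values were seen. Lengths, GC content, stem-loops and shared stretches of 150 bases came from GENCODE 29 on GRCh38, in which 48 members matched by ID and 39 by symbol (54377 of 57773 genes in all), and RPKM uses the annotated exon length. Promoters came from RefSeq on GRCh38.p14. The ratio calculation was tested on simulated data. Alternatives were DESeq2 size factors (DESeq2 1.42.0), total reads, the deposited size factors, TMM on protein-coding genes, other read minimums, a 2-fold threshold, a prior of 5 reads, centring on GC content or on GC content and length, and, chosen after seeing the data, centring on the median of all genes.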

Additional observations from a re-analysis of the deposited data

How the results depend on the processing

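The median ratio of the histone genes to the control kept its sign under all alternatives, but the number of called members, and whether it exceeds the share of all genes, rests on scaling and base composition. For LINC00273 overexpression against control, 36 members were lower; 3 were with total reads, 3 at 2-fold, 8 centred on GC content and 7 on GC content and length, which is 5.88%, 5.88%, 15.7% and 13.7% of members beside 7.23%, 9.33%, 14.96% and 15.1% of all genes. The 1 higher became 0 with a minimum of 100 reads, 5 with 10, 6 with none, and 2 under either GC centring. The median of −0.74 became −0.23 with total reads, −0.27 with GC centring and −0.15 with GC and length. For M2 against control, 21 lower became 13 with total reads, 9 at 2-fold and 11 with GC and length, or 26.5%, 18.4% and 22.4% beside 21.2%, 16.4% and 26.4% of all genes. The 1 higher became 0 with a minimum of 100 reads or at 2-fold, 3 with 10, 7 with none, 3 with GC centring and 4 with GC and length. The median of −0.52 became −0.27, −0.16 and −0.12 with total reads, GC, and GC and length. For M2 against LINC00273 overexpression, 6 higher became 1 with total reads, 13 with no minimum, 0 at 2-fold and 1 with GC and length. The 3 lower became 11 with total reads, 1 with a minimum of 100 reads, 9 with 10, 14 with none, 0 at 2-fold, 5 with GC, 7 with GC and length and 6 centred on the median of all genes. The median of 0.21 became −0.0519 with total reads. Histone shares of 3.02%, 2.52% and 2.86% were 7.27%, 4.73% and 5.03% of protein-coding reads, and 6.68%, 4.40% and 4.71% without RN7SL1 and RN7SK. Called genes whose sign changed with GC and length centring were, in the first comparison, H1F0 (0.044), HIST1H2AL (0.0245), HIST1H2AI (0.0006), HIST2H3C (0.053) and HIST1H2AJ (0.0079). In the M2 comparison HIST1H2AL was at 0.0041 with GC and 0.043 with GC and length, HIST1H4K at 0.0719 and 0.11, and HIST2H2AC at 0.12 and 0.16. Beyond what each alternative does by construction, the cause was not tested. Of the single-gene values under alternatives, 1393 stayed within the counting interval, 301 left it and 11 changed sign. No paired analysis was possible because each group has 1 library. Depth limits the members under 20 reads, for which no ratio is read.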
